A study of Mus musculus with 7 samples.

Results

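Expression of 10 stromal progenitor genes was followed in mouse brown fat: Pdgfra, Dpp4, Pi16, Cd34, Ly6a, Dlk1, Gsn, Fbn1, Dcn and Lum. They were taken by name as markers of fibroblasts and preadipocytes, with no use of their measured values, from a table of raw read counts for 53715 genes. All 10 were found and all 10 passed the filter on low counts, among 15123 genes that did. The tissue was interscapular brown fat, which burns fuel to make heat. All mice were C57BL/6J males at 10 weeks of age, either of wild-type genotype (WT, 3 libraries, numbered 1 to 3 here) or PGAM5 KO (KO, 3 libraries). PGAM5 is a phosphatase of mitochondria. The labels name no drug, diet or cold exposure for either group. Each library is described as coming from a separate individual, and KO 4 was not analysed here. How the allele was made, and in which cells PGAM5 is lost, is not stated by the labels.

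Fat tissue is held together by a stroma in which fibroblasts and adipocyte progenitors lie between the adipocytes and around vessels. Pdgfra, a receptor for platelet-derived growth factor, marks these progenitors broadly. Cells with Dpp4 and Pi16 are known as an early, interstitial population from which committed preadipocytes can form. Dlk1, also called preadipocyte factor, is a transmembrane protein that holds back adipocyte differentiation, and the matrix genes Fbn1, Dcn and Lum are products of fibroblasts. In whole tissue, fewer cells of a type and less RNA per cell cannot be told apart.

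Of the 10 genes, Pi16 and Gsn were the genes whose KO libraries all lay above the WT libraries, so the DNA in front of their start sites is shown. In the table of RefSeq promoter windows used here (build GRCm38.p6), 7 of the 10 genes were matched, in 9 windows. Those of Ly6a, Dcn and Lum were not analysed here. Each line gives the 250 bases before a start on the plus strand, 5′ to 3′. Capitals mark CCAAT boxes (CCAAT) and GC boxes (GGGCGG), the letters found on either strand out of 5 motifs searched. The windows lie at chr17:29318632-29318881 for Pi16 and at chr2:35256109-35256358, chr2:35266494-35266743 and chr2:35282130-35282379 for the 3 starts of Gsn.
Pi16: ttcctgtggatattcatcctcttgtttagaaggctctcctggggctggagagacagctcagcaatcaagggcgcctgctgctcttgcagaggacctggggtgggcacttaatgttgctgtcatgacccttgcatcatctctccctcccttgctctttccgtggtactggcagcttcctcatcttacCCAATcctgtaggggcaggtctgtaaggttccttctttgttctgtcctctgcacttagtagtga
Gsn start 1: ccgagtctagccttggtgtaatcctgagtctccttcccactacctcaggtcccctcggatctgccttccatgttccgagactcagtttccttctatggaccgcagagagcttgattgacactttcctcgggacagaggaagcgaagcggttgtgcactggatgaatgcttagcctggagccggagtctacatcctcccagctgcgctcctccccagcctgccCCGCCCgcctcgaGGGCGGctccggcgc
Gsn start 2: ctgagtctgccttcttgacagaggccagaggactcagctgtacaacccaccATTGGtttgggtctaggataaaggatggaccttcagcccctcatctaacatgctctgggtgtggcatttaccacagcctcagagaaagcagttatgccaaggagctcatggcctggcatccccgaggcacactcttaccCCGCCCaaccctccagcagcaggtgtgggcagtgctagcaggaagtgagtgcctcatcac
Gsn start 3: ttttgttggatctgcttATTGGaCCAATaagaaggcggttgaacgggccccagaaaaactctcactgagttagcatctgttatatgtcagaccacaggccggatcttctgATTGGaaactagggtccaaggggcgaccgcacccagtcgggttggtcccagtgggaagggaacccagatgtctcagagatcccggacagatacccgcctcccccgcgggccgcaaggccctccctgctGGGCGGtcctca

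The Pi16 window held 1 CCAAT box and no GC box. The Gsn windows held 2 GC boxes at start 1, 1 CCAAT box and 1 GC box at start 2, and 3 CCAAT boxes and 1 GC box at start 3. Among all 32851 windows of this length, 33.8% held a CCAAT box and 32.7% a GC box. The other motifs were a TATA box (TATAAA, 12.4% of windows), an AP-1 site (TGANTCA, 6.75%) and a TEAD site (GGAATG, 12.6%), and none of these was in the 4 windows. Dpp4 was the gene of the 7 with a TATA box and with a TEAD site, 1 of each. These matches describe letters and not bound sites. The Pi16 window and those of Gsn starts 2 and 3 lie inside the annotated extent of their genes. Gsn start 2 is 10295 bases from the nearest transcript start in the annotation used for gene positions. The count table adds the reads of all transcripts of a gene, so the Gsn starts could not be told apart.

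Libraries held 18034204 to 33617762 counts, and 3 counts, the limit that a count of 0 allows, came to between 0.0883 and 0.200 CPM (counts scaled to a common library size, with TMM factors). That limit covers counting error only. Pgam5 itself had 122 to 186 counts in WT and 1 to 11 in KO. WT 2 and KO 3 stood apart on the first principal component, at -65.0 and 66.8 against -13.0 to 8.23 for the others, and they also had the highest and the lowest share of mitochondrial genome reads (43.0% and 19.7%). The markers of the labelled tissue were abundant, with Adipoq, an adipocyte hormone, at 507 to 989 CPM and Ucp1, the uncoupling protein of brown fat, at 1638 to 5974 CPM. In KO against WT, 0.0595% of all genes passed the edgeR threshold (adjusted p of 0.05), and 0 of the 10 stromal progenitor genes did. DESeq2, run without that filter on the 27874 genes with any count, also called 0 of the 10, against 0.599% of those genes. At an unadjusted p under 0.05, 2 of the 10 were higher in KO, Pi16 and Gsn, against 6.3% of all genes. Of the 10, 8 had a positive log2 fold change (KO minus WT), against 49.8% of all genes, and 2 a negative one. The median log2 fold change was 0.18 over the 10 genes and -0.00 over all genes tested.

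**Figure D1:**
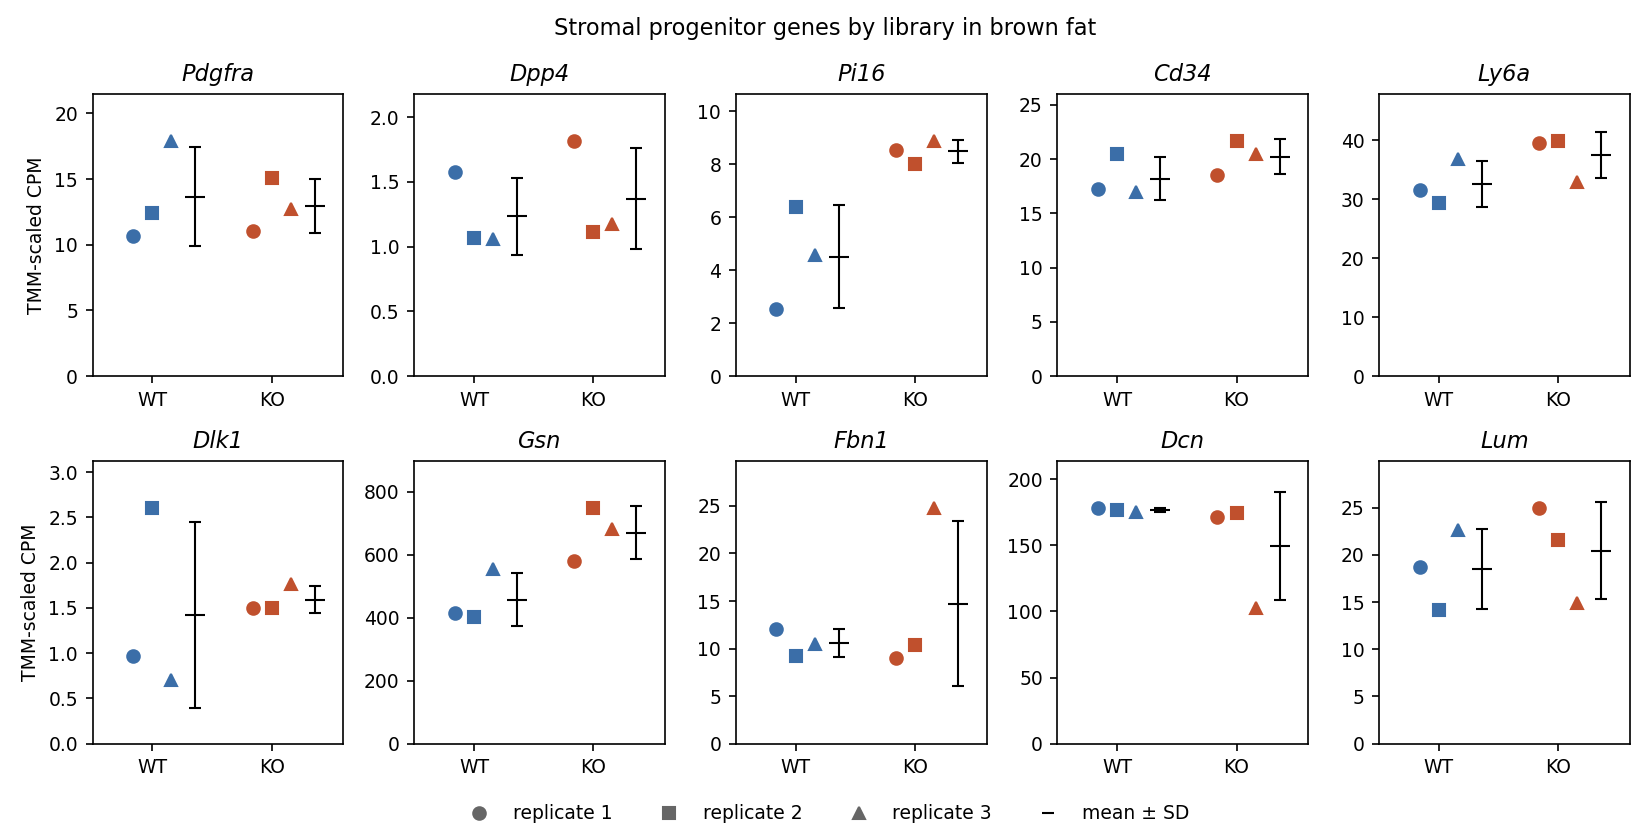
TMM-scaled CPM (vertical axes, starting at 0) of the 10 genes in each WT (blue) and KO (red) library, with symbols for replicates 1 to 3 and black bars for the mean ± SD. Pi16 and Gsn show no overlap between the groups, KO 3 stands apart for Fbn1 and Dcn, and WT 2 for Dlk1.

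Among the surface markers, Pi16 showed the widest distance between the groups. Values per library are given in the order of replicates 1, 2 and 3. Pi16 (ENSMUSG00000024011.16), a gene of a secreted or membrane-tethered peptidase inhibitor-like protein, had 2.55, 6.40 and 4.59 CPM in the WT libraries and 8.55, 8.03 and 8.89 CPM in the KO libraries. The 3 KO libraries lay close together and above all WT libraries, which differed among themselves by more than the groups' nearest members did. Of all genes tested, 10.1% had all KO libraries above all WT libraries. The log2 fold change was 0.92 (SE 0.32, 95% interval 0.20 to 1.64), that is 1.90-fold with an interval of 1.152 to 3.12, and it did not pass over all genes (edgeR adjusted p = 0.374). Raw counts of 63, 96 and 156 for WT stood against 188, 187 and 182 for KO, although the KO libraries held no more reads than WT 1 and WT 3.

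The estimate for Pi16 kept its sign in each alternative run, and its size depended on WT 1, the library with the lowest level. Without WT 1 the log2 fold change was 0.64, and without WT 2 it was 1.24. Without both WT 2 and KO 3, the libraries that stood apart, it was 1.21. The adjusted p ran from 0.0702 to 0.752 over 15 alternatives. The gene lies on chromosome 17 from 29317680 to 29330593 (mm10, plus strand). A gene model on the opposite strand, AC162182.1, overlaps it and was not analysed here.

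Dpp4, a cell surface peptidase and the other marker of the interstitial population, did not pass the test. It had 1.58, 1.07 and 1.06 CPM in the WT libraries and 1.82, 1.12 and 1.17 CPM in the KO libraries, and the groups overlapped. In both groups the library numbered 1 was highest. The log2 fold change was 0.15 with an interval of -0.77 to 1.07, which spans a fold of 0.585 to 2.09. It rests on 16 to 40 counts a library. The sign turned without KO 1 (log2 -0.10). Dpp4 (ENSMUSG00000035000.8) lies on chromosome 2 from 62330073 to 62412231, on the minus strand.

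Pdgfra, the broad progenitor receptor, had 10.7, 12.4 and 17.9 CPM in the WT libraries and 11.1, 15.1 and 12.7 CPM in the KO libraries. WT 3 was the highest library and WT 1 the lowest, so the KO range lay inside the WT range. It differed by a log2 fold change of -0.08 (SE 0.24, 95% interval -0.61 to 0.45) and turned positive without WT 3 (0.17) or KO 1 (0.03). Counts per library ran from 186 to 609, and Pdgfra (ENSMUSG00000029231.15) lies on chromosome 5 from 75152292 to 75198215.

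Cd34 and Ly6a, the latter encoding the stem cell antigen Sca-1, are used to sort progenitors, and endothelial cells also carry both. Cd34 had 17.2, 20.5 and 17.0 CPM in the WT libraries and 18.6, 21.7 and 20.5 CPM in the KO libraries. Ly6a had 31.5, 29.3 and 36.9 CPM in the WT libraries and 39.4, 39.9 and 32.9 CPM in the KO libraries. For both genes the groups overlapped, and the libraries differed little, with a coefficient of variation of 7.87% to 12.01% within a group. The log2 fold changes were 0.16 (SE 0.17, 95% interval -0.23 to 0.54) for Cd34 and 0.20 (SE 0.16, 95% interval -0.17 to 0.57) for Ly6a. These were the narrowest intervals among the 10 genes, with an upper bound of 1.45-fold for Cd34 and 1.48-fold for Ly6a.

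Markers of other cells that carry these surface proteins were summed beside them. The 12 endothelial markers summed to 494 to 792 CPM in WT and 583 to 1066 CPM in KO, with Pecam1, the defining marker, at 82.6 to 127 CPM. Of the 12, 8 were highest in KO 3, and 12 had a positive log2 fold change with all libraries, 8 without KO 3 and 7 without both WT 2 and KO 3. The 13 T, NK and B cell markers summed to 8.12 to 11.96 CPM in WT and 16.8 to 21.7 CPM in KO, with 9 of 9 tested genes positive. Cd3e, the defining marker, was at 0.334 to 0.987 CPM. Much of the sum was Ighm, a B cell gene. It had 5.17, 3.20 and 3.21 CPM in the WT libraries and 7.19, 6.78 and 14.95 CPM in the KO libraries. Of the tested T cell genes, Cd3e, Cd4, Trac and Lck lay above all WT libraries in both KO 1 and KO 2. Cd8a did so in KO 1 and not in KO 2, and Cd3d in KO 2 and not in KO 1. In KO 3 the T cell genes went both ways. Cd4 (0.391 CPM) and Lck (0.489 CPM) lay below all WT libraries, and Cd8a (0.928 CPM) and Trac (0.489 CPM) above. The sum therefore does not show more T cell RNA in each KO library. No marker of either list was at 0 counts in all libraries. T cells can also carry Dpp4 and Ly6a. The part of these cells in the values of Cd34, Ly6a and Dpp4 was not tested. Cd34 (ENSMUSG00000016494.9) lies on chromosome 1 from 194938819 to 194961279, and an antisense gene inside it, Gm16897, had 76 counts against 2642. Ly6a (ENSMUSG00000075602.10) lies on chromosome 15 from 74994877 to 74998031 among related Ly6 genes, with which reads can be shared.

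Dlk1 was low in each library. It had 0.970, 2.60 and 0.706 CPM in the WT libraries and 1.501, 1.502 and 1.76 CPM in the KO libraries, which is 24 to 39 counts a library. WT 2 was the highest and WT 3 the lowest library, and all KO libraries lay between them. The coefficient of variation was 72.0% in WT and 9.37% in KO. The log2 fold change of 0.20 had the widest interval of the 10 genes (-0.95 to 1.35). It was 0.92 without WT 2 and -0.14 without WT 3, so the direction rests on single WT libraries. Dlk1 (ENSMUSG00000040856.17) lies on chromosome 12 from 109452823 to 109463336 in an imprinted cluster. Of the other genes listed for that cluster and its paralog Dlk2, 3 were tested and 0 passed. Meg3, a maternally expressed RNA, had a log2 fold change of 0.35 (SE 0.22), Rian -0.22 (SE 0.36) and Mirg 0.57 (SE 0.72). The sign of Rian turned without WT 2 (0.27) or KO 3 (0.03), and it was 0.52 without both. Mirg was 0.28 without WT 2 and 1.02 without KO 3.

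Among the actin-binding and matrix genes, Gsn and Dcn stood on opposite sides. Gsn, gelsolin, an actin filament severing protein with a secreted form, had 415, 403 and 553 CPM in the WT libraries and 580, 748 and 682 CPM in the KO libraries. The KO libraries all lay above the WT libraries, with WT 3 and KO 1 close to each other. Its log2 fold change was 0.55 (SE 0.20, 95% interval 0.09 to 1.01), that is 1.47-fold with an interval of 1.07 to 2.01, and did not pass (edgeR adjusted p = 0.386). It ran from 0.46 to 0.71 with 1 library left out, and the adjusted p from 0.222 to 0.747 over 15 alternatives. Gsn had 79240 counts in all, so its limit is the spread between mice and not depth. Gsn (ENSMUSG00000026879.14) lies on chromosome 2 from 35256380 to 35307892, and adipocytes and muscle express it as well as fibroblasts. The 10 adipocyte markers summed to 14910 to 18463 CPM in WT and 17746 to 19982 CPM in KO. Of these markers, 5 had a positive and 5 a negative log2 fold change, with Adipoq, the defining marker, at -0.25 and Ucp1 at 1.06. Ucp1 had 2400, 1638 and 2853 CPM in the WT libraries and 4607, 3765 and 5974 CPM in the KO libraries. The 9 skeletal muscle markers summed to 8.08 to 41.7 CPM in WT and 2.001 to 36.2 CPM in KO. Their part in the Gsn values was not tested.

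Dcn, decorin, a small leucine-rich proteoglycan that binds collagen fibrils, had 178, 177 and 175 CPM in the WT libraries and 172, 174 and 103 CPM in the KO libraries. KO 3 lay far below the other 5 libraries, which lay close together. Every KO library lay below every WT library, which 9.39% of all genes did, but KO 2 and WT 3 were almost equal. Its log2 fold change was -0.24 (SE 0.22, 95% interval -0.73 to 0.25) and was near 0 without KO 3 (-0.03). Within WT the coefficient of variation was 0.919%, the smallest among the 10 genes, against 27.2% in KO.

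Fbn1, fibrillin-1, the backbone of microfibrils, had 12.1, 9.21 and 10.4 CPM in the WT libraries and 9.05, 10.4 and 24.8 CPM in the KO libraries. KO 3 was above all others, and the remaining libraries overlapped. For Fbn1 the log2 fold change was 0.47 (SE 0.36, 95% interval -0.32 to 1.27), and it was -0.12 without KO 3 and -0.21 without both WT 2 and KO 3. For Fbn1 and Dcn alike the difference between the groups therefore rests on KO 3, in which Fbn1 was high and Dcn low. Lum, lumican, a relative of decorin, had 18.7, 14.1 and 22.7 CPM in the WT libraries and 25.0, 21.5 and 14.9 CPM in the KO libraries. WT 2 and KO 3 were its lowest libraries, the groups overlapped, and the log2 fold change was 0.14 (SE 0.24, 95% interval -0.40 to 0.69). Without WT 2 (-0.02) or KO 1 (-0.02) the sign turned.

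Dcn (ENSMUSG00000019929.16, 97479609 to 97518143) and Lum (ENSMUSG00000036446.5, 97565128 to 97572703) are neighbours on the plus strand of chromosome 10, 46984 bases apart. The next genes of the same family there, Kera and Epyc, had 0 and 2 counts in all 6 libraries, against 22935 for Dcn and 2802 for Lum. Fbn1 (ENSMUSG00000027204.13) lies on the minus strand of chromosome 2 from 125300594 to 125507993.

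**Figure D2:**
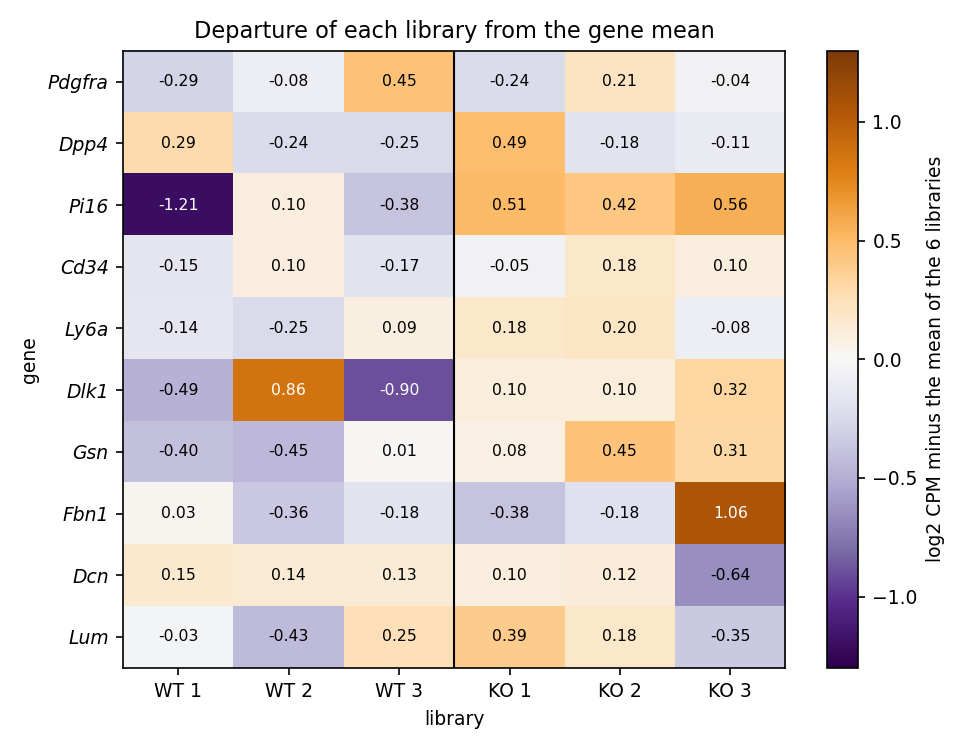
Each cell gives a gene's log2 CPM in a library minus that gene's mean over the 6 libraries (colour scale and printed value); rows are the 10 genes, columns the libraries, with a line between WT and KO. Pi16 is lowest in WT 1 (-1.21), Dlk1 runs from 0.86 in WT 2 to -0.90 in WT 3, and KO 3 holds the highest Fbn1 (1.06) and the lowest Dcn (-0.64).

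The 10 genes did not move as a block from library to library. The highest library was KO 2 for 3 genes, KO 1 for 2, KO 3 for 2 and each WT library for 1. The lowest was WT 2 for 3 genes, WT 3 for 3, WT 1 for 2, and KO 1 and KO 3 for 1 each. The mean log2 CPM of the 10 genes ran from 3.87 to 4.04 in WT and from 4.21 to 4.25 in KO, so on this average the groups did not overlap. Of all single genes tested, 10.1% had all KO libraries above all WT libraries. That average gives Pi16, a gene of low level, the same weight as Gsn. It also leans on single genes in single libraries. In KO 3 the mean departure from the gene means was 0.11, with Fbn1 at 1.06, Pi16 at 0.56 and Dcn at -0.64.

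**Figure D3:**
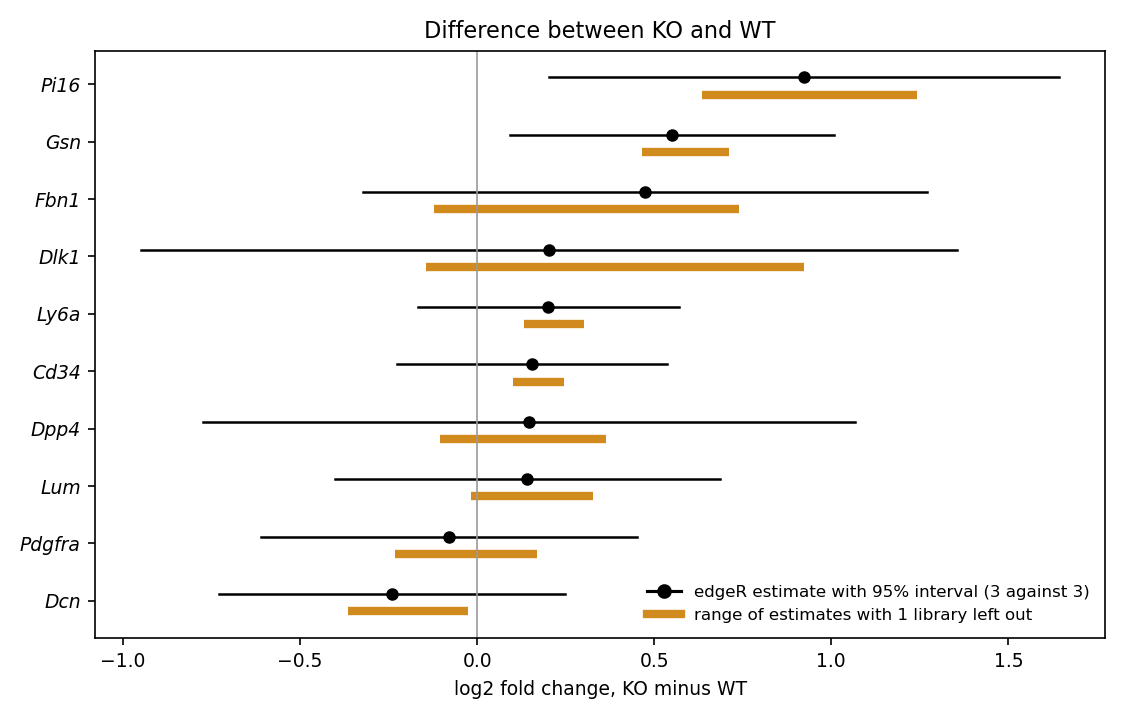
Log2 fold change (KO minus WT, horizontal axis) of each gene as estimated by edgeR, with its 95% interval (black) and the range of the estimates when 1 library is left out (orange). The intervals of Pi16 and Gsn lie above 0 before adjustment for all genes tested, and the orange ranges of Pdgfra, Dpp4, Dlk1, Fbn1 and Lum cross 0.

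Levels were compared between genes per kilobase of annotated exon. In WT, Gsn was highest at 145 ± 26.4 CPM per kilobase (SD, n = 3), followed by Dcn at 30.2 ± 0.278 and Ly6a at 27.0 ± 3.24. Lum (7.56 ± 1.75), Cd34 (2.498 ± 0.270) and Pdgfra (1.36 ± 0.378) came next. Fbn1 (0.872 ± 0.119), Pi16 (0.709 ± 0.303), Dlk1 (0.252 ± 0.181) and Dpp4 (0.195 ± 0.0468) closed the order. Neighbours whose WT libraries overlapped were Dcn and Ly6a, Fbn1 and Pi16, Pi16 and Dlk1, and Dlk1 and Dpp4. In KO the order differed in 2 places. Ly6a (31.1 ± 3.24) came before Dcn (25.6 ± 6.96), and Pi16 (1.33 ± 0.0686) came before Pdgfra (1.29 ± 0.203) and Fbn1 (1.22 ± 0.719). Both of these exchanges lay among neighbours whose KO libraries overlapped.

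**Figure D4:**
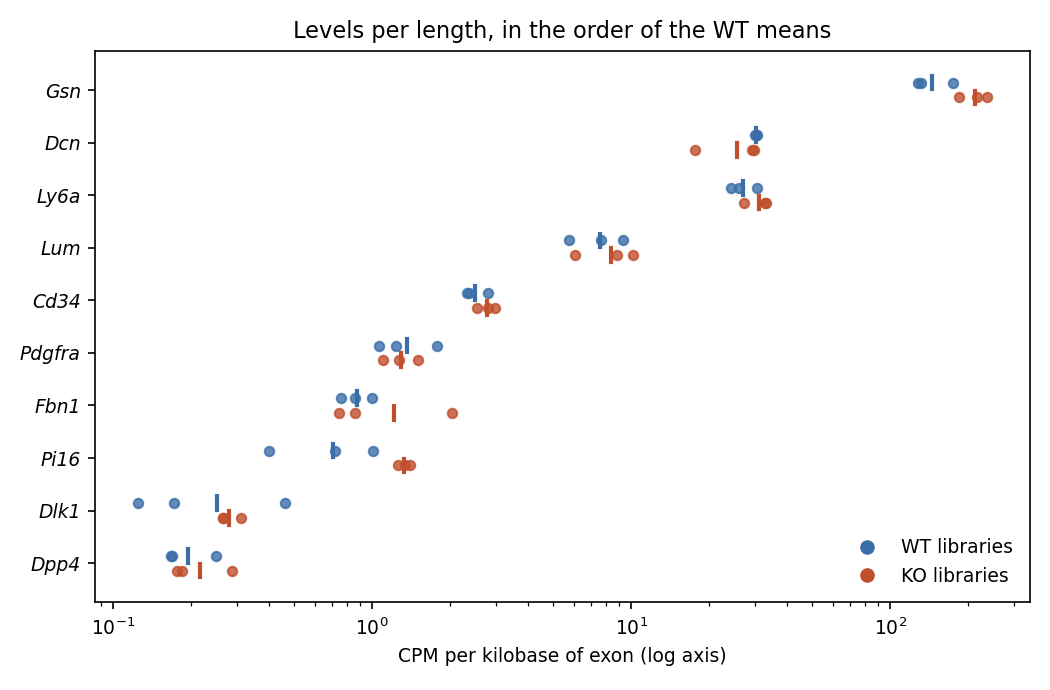
CPM per kilobase of exon on a log axis for each WT (blue) and KO (red) library, with ticks at the group means and genes in the order of the WT means. Gsn is highest in both groups, Dlk1 and Dpp4 are lowest, and Pi16 moves from below the Fbn1 mean in WT to above the Pdgfra mean in KO.

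The genes around these 10 were taken from 10 related lists, which held 116 further genes. Of these, 96 were tested, 71 had a positive and 25 a negative log2 fold change, and 0 passed over all genes. Their median was 0.21. At an unadjusted p under 0.05, 14 were higher in KO (6.3% of all genes were) and 2 were lower (5.49% of all genes were). All KO libraries lay above all WT libraries for 15 of the 96 (10.1% of all genes) and below for 4 (9.39% of all genes). KO 3 was the highest library for 36.5% of them, against 26.5% of all genes. The 10 pericyte and smooth muscle markers summed to 428 to 597 CPM in WT and 481 to 726 CPM in KO. Of these, 7 of 10 were highest in KO 3, 0 were at 0 counts, and Rgs5, the defining marker, was at 254 to 443 CPM. A positive log2 fold change was seen for 9 of 10, for 8 without KO 3 and for 9 without both WT 2 and KO 3. Their median was 0.58, and 0.34 and 0.32 in those 2 runs. Their part in the values of the lists was not tested.

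Other interstitial progenitor genes had a median of 0.20 (10 of 13 tested genes positive, 0 passing). Cd248, endosialin, a membrane glycoprotein of stromal cells, had 1.66, 1.73 and 2.65 CPM in the WT libraries and 4.23, 4.08 and 6.11 CPM in the KO libraries, log2 1.24 (SE 0.32, edgeR adjusted p = 0.310). Col14a1, a fibril-associated collagen, had 1.82, 2.93 and 2.03 CPM in the WT libraries and 3.91, 3.61 and 3.66 CPM in the KO libraries, log2 0.73 (SE 0.30). These 2 genes were named for the smallest p of the list. All their KO libraries lay above all WT libraries, as for 3 of the 13 (10.1% of all genes). The members of highest level, Ackr3, a chemokine scavenging receptor (log2 0.21, SE 0.30), and Fn1, fibronectin (0.30, SE 0.19), overlapped between the groups. Ackr3 was 0.43 without WT 2 and 0.05 without KO 3. Cd248 and Col14a1 stood at 0.94 and 0.96 without both WT 2 and KO 3.

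Committed preadipocyte and regulatory genes had a median of 0.19 (9 of 14 positive, 0 passing). Cygb, cytoglobin, stood at 0.53 (SE 0.21) and Mgp, a matrix protein that restrains calcification, at 0.32 (SE 0.17). Cebpa, an adipogenic transcription factor, stood at 0.46 (SE 0.33) and the amine oxidase gene Aoc3 at 0.38 (SE 0.21). Cebpa was 0.86 without WT 2 and 0.15 without KO 3, and Aoc3 was 0.22 without WT 2. Mature adipocytes express both genes as well.

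General fibroblast genes had a median of 0.24 (17 of 20 positive, 0 passing). Loxl1, an enzyme that crosslinks elastin, had 5.09, 5.27 and 8.09 CPM in the WT libraries and 14.7, 17.5 and 34.3 CPM in the KO libraries. Its log2 fold change was 1.84 (SE 0.34, edgeR adjusted p = 0.194), and it was 1.38 without KO 3. Cxcl12, a chemokine of stromal cells, stood at 0.66 (SE 0.24), and the KO libraries of both genes lay above all WT libraries. Sparc, a collagen-binding glycoprotein (log2 0.05, SE 0.18), and Vim, vimentin (-0.19, SE 0.21), had the highest levels in this list. Without both WT 2 and KO 3, Cxcl12 was 0.28 and Sparc -0.05.

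Of the PDGF ligands and receptors, Pdgfd, a ligand of PDGFR-beta, had 51.4, 50.2 and 34.1 CPM in the WT libraries and 25.4, 24.8 and 25.4 CPM in the KO libraries. Every KO library lay below every WT library, and the log2 fold change was -0.84 (SE 0.19, edgeR adjusted p = 0.305). It was -0.77 without both WT 2 and KO 3. Pdgfb, another ligand, stood at 0.65 (SE 0.23) and the pericyte receptor Pdgfrb at 0.79 (SE 0.32), and both had their highest level in KO 3. Without KO 3 they stood at 0.47 and 0.32. Of the 6 genes of this list beside Pdgfra, 4 were positive and 0 passed.

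Fibrillin microfibril and elastic fibre genes had a median of 0.55 (14 of 17 positive, 0 passing), and KO 3 was the highest library for 8 of 17. Without KO 3 their median was 0.31, and without both WT 2 and KO 3 it was 0.20. Ltbp4, which binds latent TGF-beta and organises elastic fibres, had 54.9, 36.8 and 69.9 CPM in the WT libraries and 75.4, 93.4 and 169 CPM in the KO libraries, log2 1.06 (SE 0.32, edgeR adjusted p = 0.3499). Without both WT 2 and KO 3 it stood at 0.44. Ltbp3 stood at 0.83 (SE 0.32), and the member of highest level, Ltbp2, at 0.02 (SE 0.18). Ltbp3 was 0.55 without WT 2, 0.54 without KO 3 and 0.25 without both. Efemp1, fibulin-3, went the other way at -0.84 (SE 0.25), with every KO library below every WT library.

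Small leucine-rich proteoglycans beside Dcn and Lum had a median of 0.04 (5 of 9 positive, 0 passing). Prelp had 368, 386 and 436 CPM in the WT libraries and 321, 287 and 306 CPM in the KO libraries, log2 -0.38 (SE 0.17, edgeR adjusted p = 0.423). Bgn, biglycan, had 45.2, 31.6 and 43.0 CPM in the WT libraries and 50.6, 48.2 and 45.4 CPM in the KO libraries, log2 0.27 (SE 0.18). The groups did not overlap for either gene, with KO lower for Prelp and higher for Bgn. Without WT 2, its lowest library, Bgn stood at 0.12. The median of the list was 0.19 without KO 3. KO 3 was the highest library for 0 of these 9 genes, against 8 of the 17 elastic fibre genes.

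Relatives by protein family were tested as well. Of the DPP4 peptidase family, Fap, a fibroblast surface peptidase, stood at 0.41 (SE 0.33), Dpp7 at 0.41 (SE 0.26), Dpp8 at -0.16 (SE 0.16) and Prep at 0.07 (SE 0.17). Of the gelsolin family, Flii (0.13, SE 0.20) and Svil (0.28, SE 0.22) were the most abundant beside Gsn, and Avil stood at 0.75 (SE 0.59). Vil1, villin, had 0.889, 0.200 and 0.706 CPM in the WT libraries and 3.87, 2.23 and 9.53 CPM in the KO libraries, log2 3.04 (SE 0.63, edgeR adjusted p = 0.273). It stood at 1.94 without both WT 2 and KO 3. Of the Ly6 family, Ly6e stood at 0.50 (SE 0.21), Gpihbp1, which carries lipoprotein lipase across capillaries, at -0.37 (SE 0.23) and Ly6c2 at 1.42 (SE 0.80). Ly6c2 had only 10, 2 and 17 counts in the WT libraries and 12, 50 and 5 in the KO libraries, with KO 2 standing apart. Without WT 2, Fap was 0.25, Avil 0.44, Ly6e 0.32 and Gpihbp1 -0.08, and Flii turned to -0.05. Without KO 3, Dpp7 was 0.21 and Prep turned to -0.01. In these 3 families 0 genes passed.

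**Figure D5:**
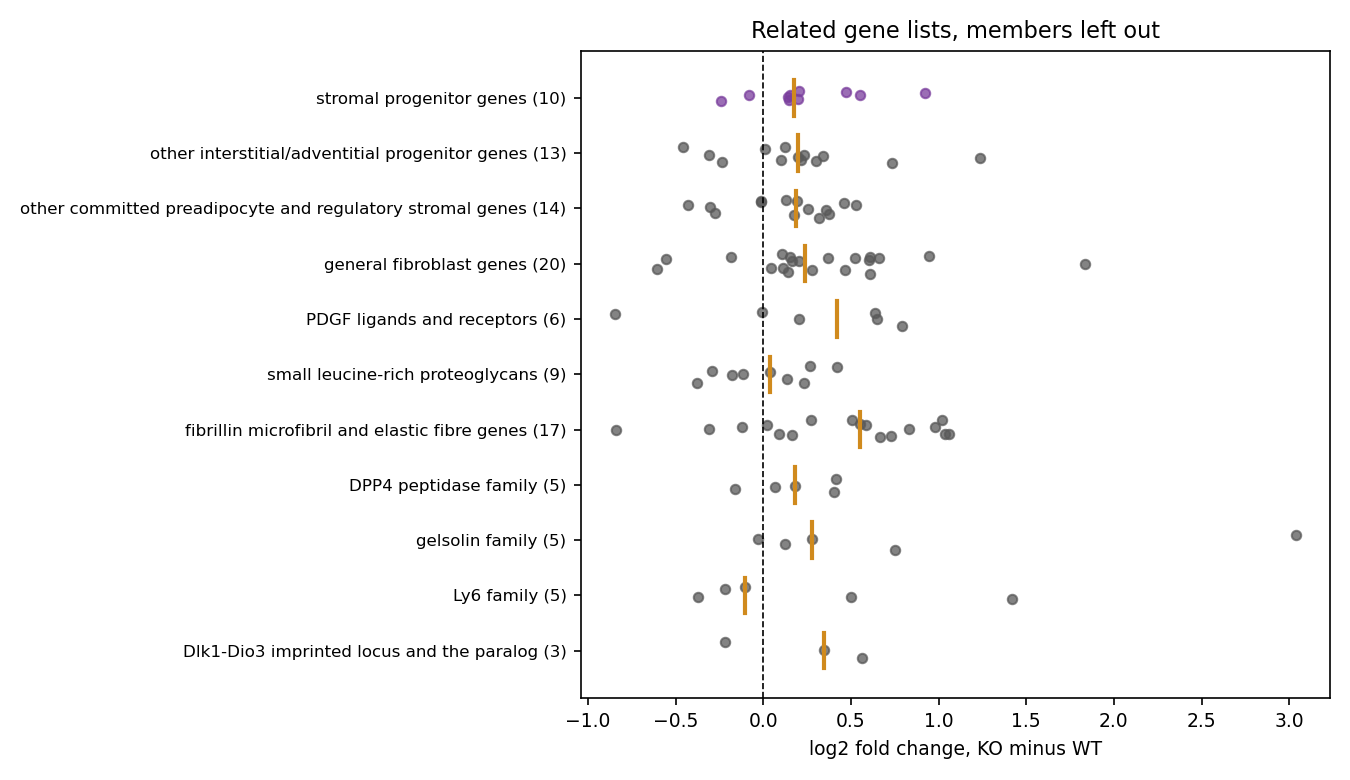
Log2 fold change (KO minus WT, horizontal axis) of each tested gene in the 10 stromal progenitor genes (purple) and in the related lists without them (grey, number of genes in brackets), with orange ticks at the list medians and a dashed line at the median of all genes. Most medians lie right of the dashed line, that of the elastic fibre genes is 0.55, and that of the Ly6 family lies left of it (-0.11), although it is 0.07 without KO 3.

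Genes whose profile over the 6 libraries was most like the mean profile of the 10 were sought among 8026 genes with a mean of at least 10 CPM. Likeness was the Euclidean distance between log2 CPM profiles centred on their means. The 5 closest were Tarbp2 (distance 0.10), Stk16 (0.11), Cyp20a1 (0.12), Wsb2 (0.12) and Pomgnt1 (0.13). Their log2 fold changes lay between 0.21 and 0.32, and 0 of them passed. The positive sign follows from the choice, since the mean profile was higher in every KO library than in every WT library. None is on a list of stromal genes used here.

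Of the lists for cells that could be dissected with the pad, those of mesothelium and of tendon and cartilage were low. Skeletal muscle sums were uneven, at 8.08, 10.5 and 41.7 CPM in the WT libraries and 2.001, 36.2 and 3.62 CPM in the KO libraries. Mesothelial markers summed to 4.14 to 6.18 CPM, with the defining marker Msln at 0 counts in WT 1 and at most 0.147 CPM elsewhere and 2 of 8 markers at 0 counts in all libraries. Tendon and cartilage markers summed to 1.94 to 3.05 CPM, with Scx, the defining marker, at 0.202 to 0.734 CPM. The other lists summed to 71.9 to 151 CPM for macrophages (Adgre1 at 2.79 to 5.09 CPM), 105 to 167 CPM for Schwann cells and 499 to 901 CPM for erythrocytes. Fibroblasts of the pad and of adjoining connective tissue cannot be told apart by these counts.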

How the data were processed

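The authors' deposited values are raw gene counts of poly(A) RNA-seq libraries, whole numbers without normalization. Libraries were made with a stranded kit, per the labels' protocols. The submitters' processing notes name build mm10, the aligner HISAT2 (2.1.0), the counter featureCounts (1.6.2) and DESeq2. Neither the gene annotation nor whether counting used strand is given in the sources used here, so reads of genes overlapping on opposite strands cannot be told apart. Of 53715 identifiers, 53620 had a symbol, matched without the version. Positions and exon lengths are from GENCODE M21 on the same build, and promoter windows from RefSeq.

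Columns were matched to samples by name. The comparison had been planned over all labelled mice, and 3 WT and 3 KO had counts. Within each group, no pair of libraries was identical or differed by as little as sampling noise. The labels call them separate individuals, so p-values measure spread between mice. filterByExpr (minimum count 10, minimum total 15) kept 15123 genes with 99.9% of counts. The genotypes were compared by edgeR's quasi-likelihood test with TMM factors, genotype alone and Benjamini-Hochberg adjustment over all genes (edgeR 4.0.16, limma 3.58.1, DESeq2 1.42.0, R 4.3.3), tested on simulated data. SE is the log2 fold change divided by the root of F, and log2 CPM used a prior count of 2. Tables and figures used Python 3.11.15, pandas 2.3.3 and matplotlib 3.10.9.

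The 10 genes, the related and marker lists and the tests were chosen with earlier results of these data known. All 10 genes were named, and from each related list the 2 genes of highest mean CPM, the 2 of smallest p and any past the threshold. Alternatives were DESeq2 size factors, DESeq2, limma-voom with and without sample quality weights, no filter, a minimum count of 50, a replicate block, mitochondrial genome genes left out, and libraries left out. Gene lengths from the longest transcript replaced those from all exons in a further alternative. The genes of smallest p and those closest in profile were picked by their values under fixed rules. Outside these rules, genes chosen after their values were seen are those in the closing section's ratios, and also Pi16 and Gsn for the sequences. The same holds for cell type markers named beside the defining ones, such as Ighm, the other T cell genes and Ucp1.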

Additional observations from a re-analysis of the deposited data

How the results depend on the processing

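The count of the 10 genes past the threshold was 0 in all 15 alternatives, against 9 genes in all in the edgeR test. That total was 167 with DESeq2, 663 with no filter, 21 with sample quality weights, 26 without both WT 2 and KO 3, and 0 to 16 with 1 library left out. The 0 came when KO 2 was left out (1443 genes at an unadjusted p under 0.05), and 1 gene passed without KO 1, 16 without WT 2 and 5 without KO 3. With no filter the median degrees of freedom were 111496, against 9.61. With 1 library left out the log2 fold change ran from -0.23 to 0.17 for Pdgfra, -0.10 to 0.36 for Dpp4, -0.14 to 0.92 for Dlk1, -0.12 to 0.74 for Fbn1 and -0.018 to 0.33 for Lum. Without both WT 2 and KO 3 that of Fbn1 was -0.21. The other 5 genes kept their sign in all alternatives, and the 10 genes together gave 139 of 148 values with the sign they had with all libraries. Dpp4 and Dlk1 were not tested at a minimum count of 50. With the longest transcript as the length, Pi16 took rank 7 and Fbn1 rank 8 in WT, which exchanged them. The cause of these shifts was not tested. The values of Dpp4 rest on 16 to 40 counts a library and those of Dlk1 on 24 to 39.

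With the replicate number as a block, 5 genes passed. Same-numbered WT and KO libraries had correlations of -0.11, 0.10 and 0.09 between their departures from the group means, and not every library was closest to its own number. With so few libraries these correlations cannot show whether same-numbered libraries shared a litter or day. The labels name nothing in common between them beyond the number.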

Other observations

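Ratios of counts within a library do not depend on how libraries are scaled. The ratio of Gsn to Dcn counts was 2.33, 2.28 and 3.16 for WT against 3.38, 4.29 and 6.65 for KO, so all KO libraries lay above the WT libraries. The ratio of Pi16 to Pdgfra counts was 0.239, 0.516 and 0.256 for WT against 0.774, 0.531 and 0.700 for KO, again without overlap, with WT 2 and KO 2 nearly equal. The ratio of Pi16 to Dcn counts was 0.0143, 0.0363 and 0.0262 for WT against 0.0498, 0.0461 and 0.0867 for KO. The ratio of Fbn1 to Dcn counts was 0.0521 to 0.0678 in the other 5 libraries and 0.241 in KO 3. Dcn to Lum was 7.71 to 12.5 in WT and 6.87 to 8.09 in KO, with overlap. In CPM, Gsn and Pi16 lay above and Dcn below all WT libraries in every KO library. The ratios of Gsn and of Pi16 to Dcn were therefore bound to separate the groups and add nothing to those values. These pairs were chosen after their values were seen, and the ratios were not tested.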
